A study of Homo sapiens with 22 samples.

Results

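The genes described here are 40 genes of DNA replication and S phase, the part of the cell cycle in which the genome is copied. They were chosen by symbol, with earlier results of these data known, from the 58870 gene rows of the siRNA tables and the 57820 gene rows of the actinomycin D tables. All 40 passed the filter on low counts in both experiments. The samples are of LS180 and HCT116, both human colorectal cancer lines, and the study concerned STAU1 (Staufen1), a protein that binds RNA, together with FOXA1 mRNA, which encodes a transcription factor. LS180 cells had received siSTAU1 (n = 2), an siRNA directed against STAU1 mRNA, or siCTRL (n = 2), a control siRNA, over a pair of 72 h periods, and polyA RNA was sequenced. To stop transcription, HCT116 and LS180 cells had been kept with the DNA-binding drug actinomycin D (5 µg/ml) for 0, 2 or 4 h, with 3 libraries of total RNA for each line and time. Each line is a single established line without any other stated alteration, and the labels do not say whether libraries of a group came from separate cultures, and the p-values then reflect only library-to-library spread, possibly technical.

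Replication is prepared in G1, when the origin recognition complex (ORC), CDC6 and CDT1 load the MCM2-7 helicase onto DNA, a step called licensing that geminin (GMNN) blocks once S phase has begun. In S phase MCM10, CDC45 and the GINS complex turn the loaded helicase into a moving machine. Polymerase alpha with primase starts each strand, polymerases delta and epsilon extend it on the PCNA clamp that replication factor C (RFC) loads, replication protein A (RPA) covers the single strands, and FEN1 and LIG1 join the lagging-strand pieces. Ribonucleotide reductase (RRM1, RRM2), thymidylate synthase (TYMS) and thymidine kinase (TK1) supply deoxynucleotides, SLBP binds histone mRNA, and UHRF1 brings DNA methylation to newly made DNA. Many of these genes are transcribed under E2F transcription factors, so that in bulk RNA a lower share of cycling cells and less RNA per cell cannot be told apart.

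The siRNA libraries held 23.7 to 26.7 M counts and the actinomycin D libraries 47.8 to 61.4 M. STAU1 stood at 9.70 and 9.17 CPM in the siSTAU1 libraries, against 144 and 141 CPM in the siCTRL libraries, where CPM are counts relative to the TMM-scaled library total. FOXA1 stood at 70.3 and 70.7 CPM with siSTAU1, against 63.3 and 64.5 CPM with siCTRL (log2 fold change 0.14, edgeR adjusted p = 0.0269). Of 15 colorectal epithelium markers, 15 exceeded 1 TPM in the siRNA libraries, 13 in LS180 and 6 in HCT116 at 0 h of actinomycin D, with CEACAM5, CDX1 and MUC2 at 0 in all HCT116 libraries at 0 h. Summed fibroblast markers were 9.34 to 9.66 TPM with siSTAU1 and 2.87 to 3.01 TPM with siCTRL, with PDGFRA, THY1 and COL1A2 at 0 in both. Only LUM and COL3A1 exceeded 1 TPM with siSTAU1, and only LUM with siCTRL. The summed immune markers were 88.5 to 91.5 TPM with siSTAU1 and 232 to 237 TPM with siCTRL, with CD3D, CD3E and MS4A1 at 0 in both. Only LYZ and CD14 exceeded 1 TPM in either group. The 2 immune markers that passed the filter were called in opposite directions, with log2 fold changes of -1.32 and 0.5. The part of these markers in the results on siSTAU1 was not tested. Exons of 17 of the 40 genes overlap those of another annotated gene and 7 have named pseudogenes, RRM2, PCNA and RPA2 with 3 each, so their counts may hold reads of those copies. No libraries were duplicates, but the HCT116 libraries numbered 1 and the LS180 4 h library numbered 1 stood apart from the others of their groups. Between LS180 4 h libraries a chi-square per degree of freedom over genes was 57.2 and 109 for the pairs with number 1 and 15.7 for the other pair, and HCT116 pairs with number 1 gave 21.7 to 37.7 against 3.92 to 8.31 without it.

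Per transcript length, PCNA was the most abundant of the 40 genes, with 416 ± 6.75 TPM in siCTRL cells (SD, n = 2), 122 TPM in HCT116 cells and 128 TPM in LS180 cells at 0 h of actinomycin D. MCM7, RRM2, TK1 and MCM3 were also among the 6 highest in all 3 of these groups. The lowest were MCM10 in siCTRL cells at 13.4 TPM and GINS4 at 0 h, with 2.59 TPM in HCT116 and 2.6 TPM in LS180. By role, the deoxynucleotide synthesis genes had the highest median in siCTRL cells, at 214.5 TPM over 4 genes, and the polymerases and primase the lowest, at 19.9 TPM over 7 genes. The 2 experiments differed in build and RNA selection, so their levels are not compared with each other.

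The promoters of these genes are known for E2F sites, and this sequence feature was not used to choose them. A window of 250 bases before to 50 bases after the RefSeq start was at hand for 35 of the 40 genes (47 windows, GRCh38.p14). The letters TTTCCCGC, TTTCGCGC, TTTGCCGC or TTTGGCGC, searched on both strands with overlapping matches counted separately, were found in 19 of the 35 genes (54.3%), against 5.4% of 15843 protein-coding genes. CCAAT, the motif of the NF-Y factor, was found in 60% against 42.1%. The 4 promoters shown belong to the gene with the most matches (MCM6), to a pair of genes that fell in both lines under actinomycin D (CDT1 and GINS3), and to the gene that fell furthest with siSTAU1 (POLA1). Capitals mark the E2F-like letters on either strand, and each sequence is read in the direction of its gene.
MCM6, chr2:135876394-135876693, minus strand: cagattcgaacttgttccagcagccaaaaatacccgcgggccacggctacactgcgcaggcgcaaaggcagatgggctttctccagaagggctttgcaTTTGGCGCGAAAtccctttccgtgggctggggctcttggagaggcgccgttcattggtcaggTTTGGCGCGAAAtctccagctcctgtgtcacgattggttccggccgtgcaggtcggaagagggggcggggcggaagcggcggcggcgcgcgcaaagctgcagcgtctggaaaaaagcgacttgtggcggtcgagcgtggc
CDT1, chr16:88803539-88803838, plus strand: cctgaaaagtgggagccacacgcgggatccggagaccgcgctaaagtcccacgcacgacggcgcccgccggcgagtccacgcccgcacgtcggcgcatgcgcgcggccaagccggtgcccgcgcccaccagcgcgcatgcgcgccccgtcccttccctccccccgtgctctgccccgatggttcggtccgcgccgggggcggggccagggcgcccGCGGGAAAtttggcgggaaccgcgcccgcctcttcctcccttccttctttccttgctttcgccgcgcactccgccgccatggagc
GINS3, chr16:58392221-58392520, plus strand: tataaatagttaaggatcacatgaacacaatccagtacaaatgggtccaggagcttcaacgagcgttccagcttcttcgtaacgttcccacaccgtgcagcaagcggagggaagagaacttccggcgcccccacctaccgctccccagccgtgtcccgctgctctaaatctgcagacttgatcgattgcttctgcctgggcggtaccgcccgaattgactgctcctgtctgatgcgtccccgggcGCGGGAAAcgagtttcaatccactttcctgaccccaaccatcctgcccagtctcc
POLA1, chrX:24693668-24693967, plus strand: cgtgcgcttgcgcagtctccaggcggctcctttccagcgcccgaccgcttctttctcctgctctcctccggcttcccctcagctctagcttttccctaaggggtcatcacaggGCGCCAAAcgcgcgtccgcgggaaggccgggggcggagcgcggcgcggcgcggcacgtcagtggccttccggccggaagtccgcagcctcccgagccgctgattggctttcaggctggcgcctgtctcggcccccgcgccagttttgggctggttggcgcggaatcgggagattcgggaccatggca
In MCM6 the letters occur 4 times, as 2 blocks in which a match on one strand overlaps a match on the other, and in CDT1, GINS3 and POLA1 they occur once. No match was found in the windows of RRM2, TK1, RFC5, RPA1 or MCM10, among others, which says nothing about binding there.

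With siSTAU1, compared with siCTRL to ask which mRNAs changed in LS180 cells with less STAU1, the replication genes went in both directions. Called higher were 3 of 4 genes of nucleotide supply and all 3 of single-strand binding, with RRM2 (1.43-fold), RPA3 (1.35-fold) and TK1 (1.33-fold) changed furthest. Called lower were 4 of 7 polymerase and primase genes and 3 of 6 MCM2-7 helicase genes, with POLA1 (to 73% of siCTRL) and PRIM1 (to 77.6%) changed furthest. In all, 10 of 40 genes (25%) were called higher, against 23.0% of the 14073 genes tested, and 14 (35%) lower, against 23.0%. A call is an adjusted p under 0.05. The median log2 fold change of the 40 genes was -0.01, against 0.001 over all genes tested, and no gene changed 2-fold. With 2 libraries a group, the groups did not overlap in 35 of the 40 genes, all 24 called ones among them. A lack of overlap therefore says little about any one gene, and its share over all genes was not computed.

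**Figure D1:**
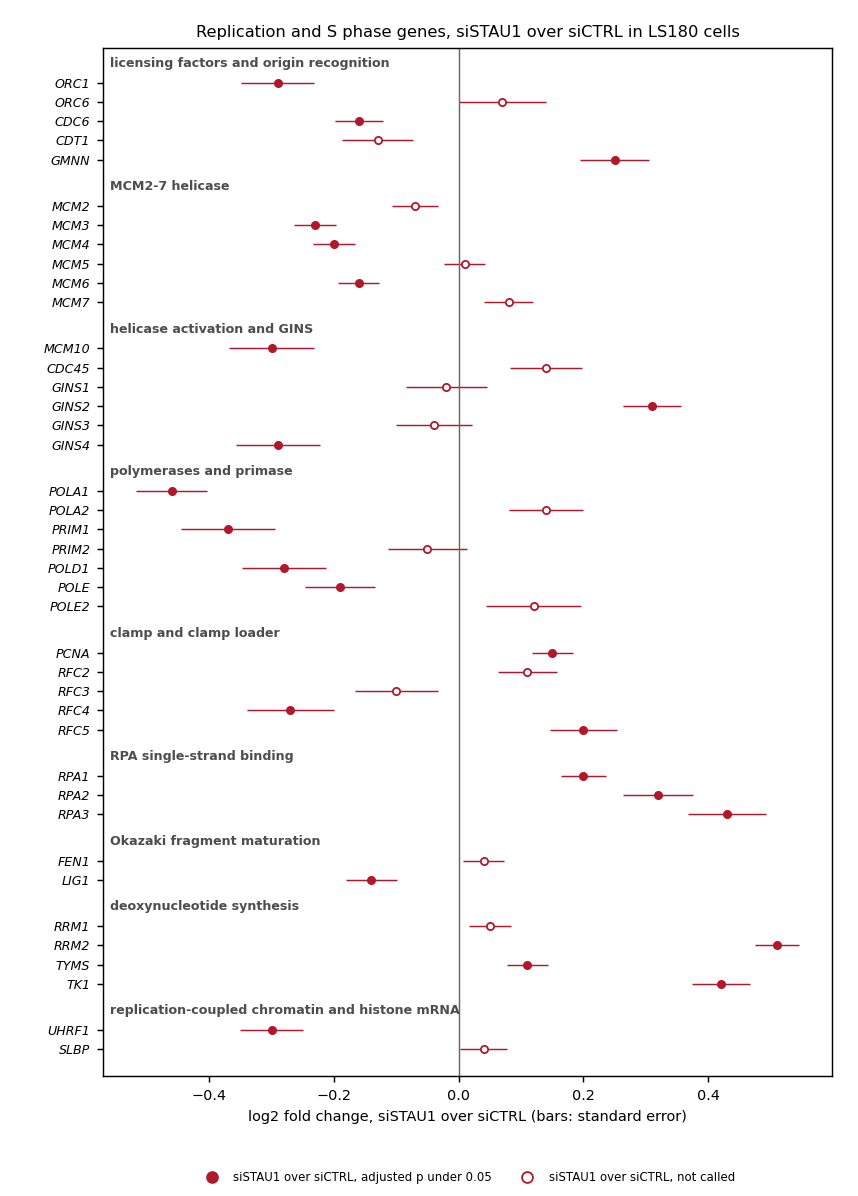
Log2 fold change (siSTAU1 over siCTRL, x axis) of each of the 40 genes, grouped by role, with bars for the standard error, filled points for genes with an adjusted p under 0.05 and open points for the rest. The 3 RPA genes and 3 of 4 deoxynucleotide synthesis genes lie right of 0 as filled points, and the filled polymerase, primase and MCM2-7 points lie left of 0.

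All 4 deoxynucleotide synthesis genes had positive estimates and 3 were called. RRM2, the regulated small subunit of ribonucleotide reductase (chr2:10120698-10131419, plus strand of GRCh38), had 678 and 696 CPM with siSTAU1, against 477 and 487 CPM with siCTRL. The groups did not overlap, and the log2 fold change was 0.51 (SE 0.0357, edgeR adjusted p = 8.21e-07). RRM2 exons overlap AC007240.1 on the same strand, so its counts may hold reads of that gene. TK1, which salvages thymidine, had 216 and 236 CPM with siSTAU1, against 164 and 175 CPM with siCTRL. Its log2 fold change was 0.42 (SE 0.0465, edgeR adjusted p = 2.74e-05), with no overlap. TYMS, which makes thymidylate, differed by 0.11 (edgeR adjusted p = 0.0132), and its adjusted p ranged up to 0.156 over the alternatives, the call being lost with an effective length offset and without either siCTRL library. RRM1, the large reductase subunit, was not called (0.05, edgeR adjusted p = 0.288).

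The 3 RPA genes, which encode the trimer that coats single-stranded DNA, were all called higher. RPA3 had 43.7 and 45.0 CPM with siSTAU1, against 33.6 and 32.0 CPM with siCTRL (log2 fold change 0.43, SE 0.0621, edgeR adjusted p = 0.000159). RPA2 had 59.8 and 63.9 CPM with siSTAU1, against 49.1 and 50.1 CPM with siCTRL (0.32, edgeR adjusted p = 0.000684). RPA1 had 179 and 182 CPM with siSTAU1, against 154 and 161 CPM with siCTRL (0.20, edgeR adjusted p = 0.000778). None of the 3 overlapped between the groups. Without siCTRL library 1 the RPA1 adjusted p was 0.0518. RPA3 exons overlap those of UMAD1 on the other strand, and since the strand setting of the authors' counting is not given in the sources used here, reads of the pair may be shared.

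Of the 7 polymerase and primase genes, 4 were called lower and none higher. POLA1, the catalytic subunit of polymerase alpha (chrX:24693919-24996986, plus strand of GRCh38), stood at 45.3 and 43.7 CPM with siSTAU1, against 62.6 and 59.4 CPM with siCTRL. Its log2 fold change was -0.46 (SE 0.0571, edgeR adjusted p = 6.02e-05). PRIM1, the catalytic primase subunit, had 20.4 and 20.4 CPM with siSTAU1, against 27.7 and 24.7 CPM with siCTRL (-0.37, SE 0.0748, edgeR adjusted p = 0.00184). Neither of the other subunits of the same complex was called: POLA2 had a log2 fold change of 0.14 (edgeR adjusted p = 0.0699) and PRIM2 one of -0.05 (edgeR adjusted p = 0.54). POLD1 and POLE, the catalytic subunits of polymerases delta and epsilon, were called lower, at -0.28 and -0.19. POLD1 was not called with an effective length offset or without siCTRL library 2 (adjusted p up to 0.467 over the alternatives), and POLE was not called in 4 of 9 alternatives.

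**Figure D2:**
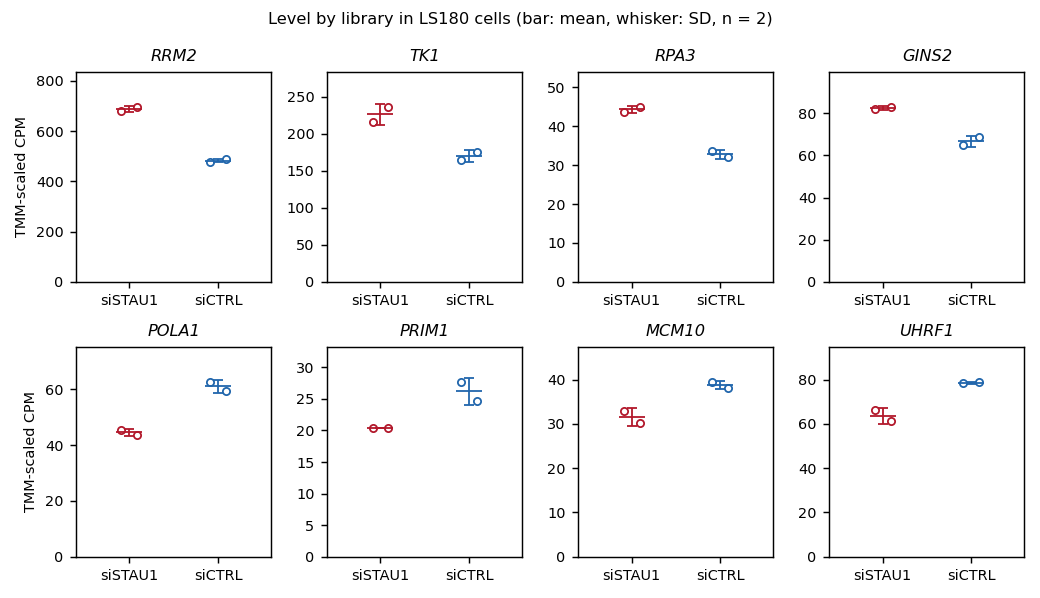
TMM-scaled CPM (y axis, from 0) in each siSTAU1 and siCTRL library for 4 genes called higher (top) and 4 called lower (bottom). Points are libraries, the bar is the mean and the whisker the SD of 2 libraries. In each of the 8 panels the siSTAU1 and siCTRL points do not overlap, as in 35 of the 40 genes, a share not computed over all genes.

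Among the helicase genes, MCM3, MCM4 and MCM6 were called lower, at -0.23, -0.20 and -0.16, and MCM2, MCM5 and MCM7 were not, at -0.07, 0.01 and 0.08. MCM3 had 280 and 288 CPM with siSTAU1, against 337 and 329 CPM with siCTRL (edgeR adjusted p = 0.000202). MCM4 had 333 and 324 CPM with siSTAU1, against 378 and 376 CPM with siCTRL (edgeR adjusted p = 0.000506). The 6 subunits form a ring with 1 copy of each, and their mRNAs changed unequally here. MCM6 was no longer called without siCTRL library 1 (adjusted p up to 0.0664).

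Helicase activation genes also went in both directions. GINS2 had 81.8 and 83.0 CPM with siSTAU1, against 64.9 and 68.6 CPM with siCTRL (0.31, SE 0.047, edgeR adjusted p = 0.000267). MCM10, which helps start the helicase, had 33.0 and 30.1 CPM with siSTAU1, against 39.5 and 38.1 CPM with siCTRL (-0.30, SE 0.0678, edgeR adjusted p = 0.00347). GINS4 was also called lower, at 21.2 and 20.6 CPM with siSTAU1, against 25.9 and 25 CPM with siCTRL (-0.29, SE 0.0676, edgeR adjusted p = 0.00444), while GINS1, GINS3 and CDC45 were not called, at -0.02, -0.04 and 0.14. Among the licensing genes called, the inhibitor and the loaders differed in sign. GMNN was called higher, at 65.2 and 69.7 CPM with siSTAU1, against 54.9 and 58.3 CPM with siCTRL (0.25, edgeR adjusted p = 0.00292). ORC1 was called lower, at 40.2 and 41.7 CPM with siSTAU1, against 51.2 and 49.3 CPM with siCTRL (-0.29, edgeR adjusted p = 0.0016), as was CDC6 (-0.16). CDT1 (-0.13, edgeR adjusted p = 0.0868) and ORC6 (0.07, edgeR adjusted p = 0.416) were not called.

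In the clamp and clamp loader, PCNA and RFC5 were called higher (0.15 and 0.20) and RFC4 lower (-0.27), with RFC2 and RFC3 not called. LIG1, the ligase of the lagging strand, was called lower (-0.14) and FEN1 was not called (0.04). UHRF1 had 66.2 and 61.2 CPM with siSTAU1, against 78.3 and 79.0 CPM with siCTRL (-0.30, SE 0.0508, edgeR adjusted p = 0.000488). SLBP was not called (0.04). The calls of 12 of the 24 genes held in all 9 alternatives, namely RRM2, TK1, RPA2, RPA3 and GINS2 among those higher and POLA1, PRIM1, UHRF1, MCM10, ORC1, MCM3 and MCM4 among those lower. Without siCTRL library 1 there were 5 genes called higher and 9 lower (12.5% and 22.5%, against 13.5% and 14.5% of all genes), and without siCTRL library 2 there were 7 and 9 (17.5% and 22.5%, against 14.4% and 15.1%).

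Genes with long transcripts tended to have lower estimates. Across the 40 genes, the Spearman correlation between the effective length in the siCTRL and siSTAU1 libraries and the log2 fold change was -0.44, and across all 14073 genes tested it was -0.33, where genes share their libraries and are not independent. The 14 genes called lower had a median transcript of 3788.5 bases and the 10 called higher one of 1707 bases (GENCODE release 29). With the effective length of each library as an offset, 9 genes (22.5%) were called higher, against 15.6% of all genes, and 12 (30%) lower, against 15.9%. That offset adjusts for differences in effective length between libraries, and the part of transcript length in the calls was not tested. Of 48 other replication and S phase genes, 11 (22.9%) were called higher, against 23.0% of all genes tested, and 20 (41.7%) lower, against 23.0%. POLE3, a small subunit of polymerase epsilon (0.56), and CCNA2, the S phase cyclin (0.30), were among those higher. TOPBP1, which helps activate the helicase (-0.61), NASP, a histone chaperone (-0.39), DNMT1, the maintenance methyltransferase (-0.34), and CHAF1A, a subunit of the replication-coupled histone chaperone (-0.51), were among those lower.

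The actinomycin D time course asked how much of each mRNA remains when no new one is made. Levels are relative to the transcripts still present at each time, since every library is scaled to its own total, so a gene can rise in CPM while its transcript number falls. This bears on every rise that follows: with scaling to ribosomal protein genes in place of TMM, the median of all genes at 4 h moved to -0.335 in HCT116 and -0.542 in LS180, against 0.025 and 0.000 with TMM, and none of the 40 genes was called higher in either line at 2 h or 4 h. A fall under TMM is a loss relative to this scaling.

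At 4 h in HCT116, 24 of the 40 genes (60%) were called higher, against 26.2% of the 17256 genes tested, and 6 (15%) lower, against 23.7%. At 4 h in LS180, 13 (32.5%) were called higher, against 26.6%, and 12 (30%) lower, against 31.1%. Scaled to ribosomal protein genes, 0 were higher and 13 (32.5%) lower in HCT116, against 0.649% and 42.4% of all genes tested, and 0 higher and 34 (85%) lower in LS180, against 0.73% and 62.2%. With total library size, 11 were higher and 7 lower in HCT116 (27.5% and 17.5%, against 13.2% and 25.6% of all genes), and 4 higher and 20 lower in LS180 (10% and 50%, against 11% and 37.4%). The same 6 genes were lower in both lines under TMM: the licensing genes CDT1, CDC6 and GMNN, the helicase activators MCM10 and GINS3, and SLBP. The share of all genes lower in both lines was not computed, so this count cannot be called particular to the list. In both lines the calls of these 6 genes held under all 15 alternatives, the ribosomal protein scaling included. The median log2 fold change over the 40 genes was 0.23 in HCT116 and 0.03 in LS180 under TMM. Without HCT116 4 h library 2 there were 12 genes called higher in HCT116 (30%, against 19.5% of all genes), without library 3 there were 11 (27.5%, against 19.3%), and in a fit of only the groups compared 15 (37.5%, against 22.8%).

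**Figure D3:**
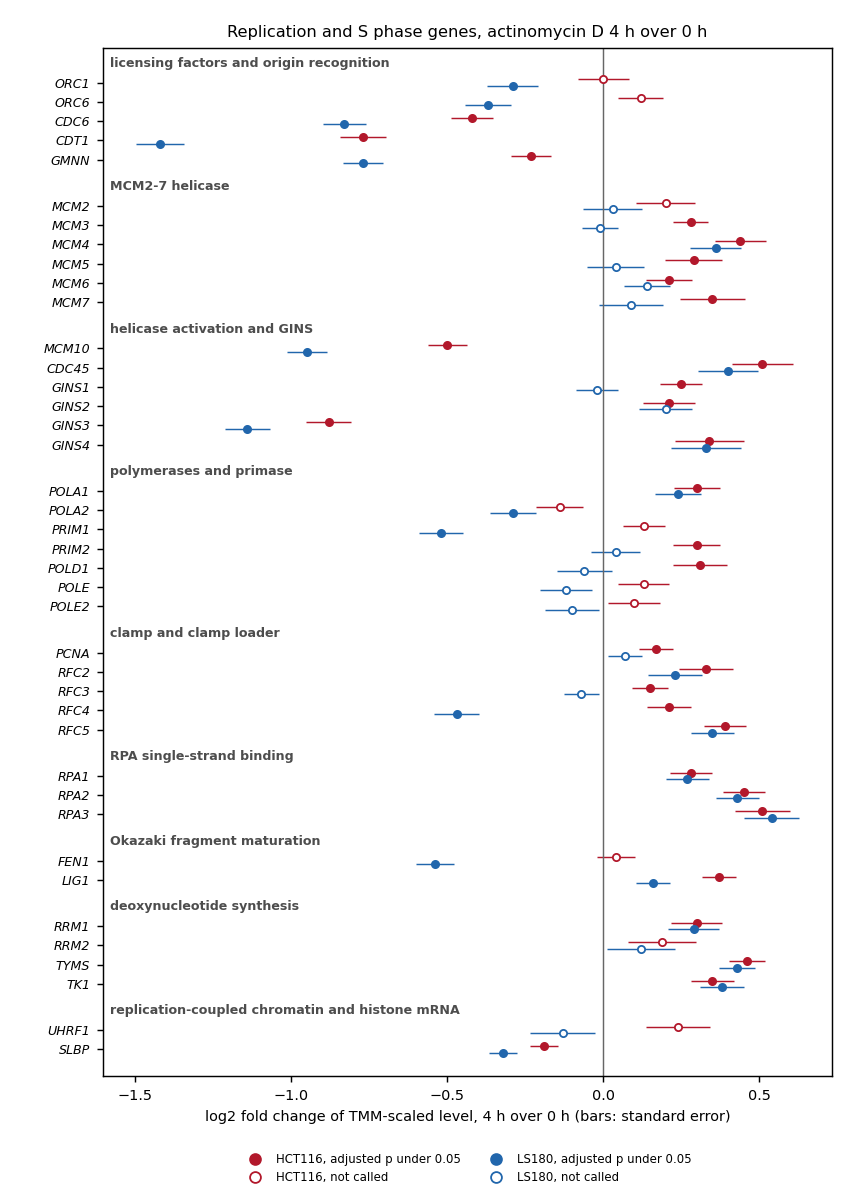
Log2 fold change of TMM-scaled level after 4 h of actinomycin D over 0 h (x axis) for each of the 40 genes in HCT116 and LS180, grouped by role, with bars for the standard error and filled points for an adjusted p under 0.05. CDT1, CDC6, GMNN, MCM10, GINS3 and SLBP lie left of 0 in both lines, and the points of RFC4 lie on opposite sides of 0. Rises are relative to TMM, and none of these genes was called higher with scaling to ribosomal protein genes.

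CDT1, the loader of MCM2-7 that geminin inhibits (chr16:88803213-88809258, plus strand of GRCh38), had the largest fall in LS180. In HCT116 it stood at 73.7, 84.8 and 89.7 CPM at 0 h, 54.2, 61.6 and 63.2 CPM at 2 h and 46.4, 50.2 and 48.9 CPM at 4 h. In LS180 it stood at 49.2, 49.8 and 46.7 CPM at 0 h, 30.1, 29.3 and 31.1 CPM at 2 h and 19.7, 17.1 and 17.7 CPM at 4 h. In neither line did the libraries of one time overlap those of another. The 4 h level was 58.6% of the 0 h level in HCT116 (log2 fold change -0.77, SE 0.0732, edgeR adjusted p = 6.99e-08) and 37.5% in LS180 (-1.42, SE 0.077, edgeR adjusted p = 1.17e-11).

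GINS3, a subunit of the 4-protein GINS complex (chr16:58295080-58406144, plus strand of GRCh38), had the largest fall in HCT116. It had 32.2, 35.4 and 34.7 CPM at 0 h, 23.3, 26.6 and 27.2 CPM at 2 h and 18.8, 18.5 and 18.1 CPM at 4 h in HCT116. In LS180 it had 43.2, 40.7 and 42.3 CPM at 0 h, 29.8, 32.8 and 32.4 CPM at 2 h and 20.7, 19.4 and 17.2 CPM at 4 h. The 4 h change was -0.88 in HCT116 (SE 0.0717, edgeR adjusted p = 7.53e-09) and -1.14 in LS180 (SE 0.0719, edgeR adjusted p = 1.09e-10). The other GINS genes did not fall with it: GINS1, GINS2 and GINS4 were at 0.25, 0.21 and 0.34 in HCT116 and at -0.02, 0.20 and 0.33 in LS180 under TMM. With ribosomal protein scaling they were at -0.15, -0.19 and -0.06 in HCT116, none of them called, and at -0.58, -0.37 and -0.22 in LS180, where GINS1 and GINS2 were called lower.

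MCM10 had 100, 114 and 111 CPM at 0 h, 83.2, 95.9 and 98.9 CPM at 2 h and 73.0, 77.3 and 79.4 CPM at 4 h in HCT116. In LS180 it had 66.6, 66.6 and 70.3 CPM, then 46.7, 46.8 and 46.1 CPM, then 33.8, 35.7 and 36.2 CPM at the same times. The 4 h change was -0.50 in HCT116 (SE 0.0629, edgeR adjusted p = 2.51e-06) and -0.95 in LS180 (SE 0.0647, edgeR adjusted p = 3.32e-10). CDC6, the ATPase that loads the helicase with CDT1, had 136, 152 and 155 CPM at 0 h, 117, 135 and 136 CPM at 2 h and 105, 111 and 114 CPM at 4 h in HCT116. In LS180 it had 121, 126 and 133 CPM at 0 h, 93.4, 91.0 and 92.6 CPM at 2 h and 76.6, 68.3 and 69.0 CPM at 4 h. Its 4 h change was -0.42 in HCT116 (edgeR adjusted p = 4.39e-05) and -0.83 in LS180 (edgeR adjusted p = 5.75e-09).

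GMNN was not called at 2 h in HCT116, with 40.9, 41.0 and 41.9 CPM at 0 h, 39.4, 40.2 and 41.2 CPM at 2 h and 33.8, 36.3 and 35.5 CPM at 4 h. In LS180 it had 50.3, 47.9 and 52.8 CPM at 0 h, 43.0, 36.5 and 37.2 CPM at 2 h and 31.6, 27.7 and 29.1 CPM at 4 h. The 2 h change was -0.04 in HCT116 (edgeR adjusted p = 0.732) and -0.37 in LS180 (edgeR adjusted p = 0.000135). SLBP, needed for the 3′ end of histone mRNAs, had 116, 117 and 115 CPM at 0 h, 115, 112 and 116 CPM at 2 h and 105, 96.5 and 102 CPM at 4 h in HCT116. In LS180 it had 117, 118 and 127 CPM at 0 h, 111, 110 and 107 CPM at 2 h and 95.6, 97.2 and 97.7 CPM at 4 h. SLBP had the smallest fall of the 6 genes in both lines, with 4 h changes of -0.19 in HCT116 (edgeR adjusted p = 0.00139) and -0.32 in LS180 (edgeR adjusted p = 7.04e-06).

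**Figure D4:**
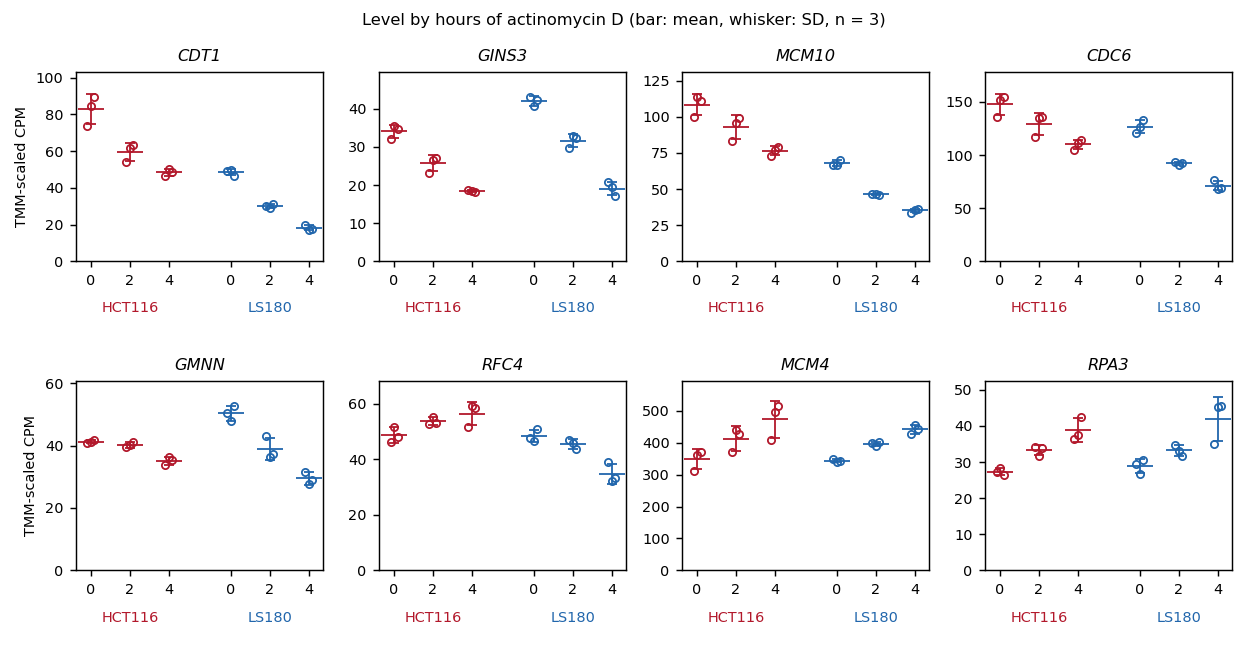
TMM-scaled CPM (y axis, from 0) at 0, 2 and 4 h of actinomycin D in HCT116 and LS180 libraries for 8 genes. Points are libraries, the bar is the mean and the whisker the SD of 3 libraries. CDT1, GINS3, MCM10, CDC6 and GMNN end below their 0 h level in both lines, RFC4 is higher at 4 h in HCT116 and lower in LS180, and MCM4 and RPA3 are higher at 4 h under this scaling, which scaling to ribosomal protein genes does not keep.

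The genes called higher at 4 h under TMM included all 3 RPA genes in both lines, with changes of 0.28 to 0.51 in HCT116 and 0.27 to 0.54 in LS180, although none was called higher in either line with ribosomal protein scaling. RPA3 had 36.5, 37.4 and 42.6 CPM at 4 h, against 27.1, 28.3 and 26.4 CPM at 0 h in HCT116, and 35.0, 45.2 and 45.6 CPM at 4 h, against 29.5, 26.7 and 30.6 CPM at 0 h in LS180. TYMS, TK1 and RRM1 of the deoxynucleotide genes, CDC45, GINS4, LIG1, MCM4, POLA1, RFC2 and RFC5 made up the rest of the 13 genes called higher in both lines under TMM. For this joint count, too, the share over all genes was not computed. TYMS, TK1, RPA2 and RPA3 were called higher in both lines under every alternative but the ribosomal protein scaling, while in LS180 the calls of the other 9 were also lost with total library size. TYMS had 102, 109 and 114 CPM at 4 h, against 79.3, 78.9 and 76.9 CPM at 0 h in HCT116. In LS180 TYMS had 86.2, 95.4 and 96.6 CPM at 4 h, against 69.5, 72.4 and 64.8 CPM at 0 h. The TYMS groups did not overlap in either line, as in 23 of the 40 genes in HCT116 and 26 in LS180. The share of all genes without overlap was not computed, so these counts have no background beside them. TYMS exons overlap ENOSF1 and TYMSOS on the other strand, which makes its level uncertain in the same way as that of RPA3.

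Among the genes called higher under TMM, CDC45, which joins the helicase at activation, had 20.0, 20.8 and 23.7 CPM at 0 h, 23.1, 26.4 and 26.5 CPM at 2 h and 25.5, 33.1 and 33.2 CPM at 4 h in HCT116. It had 36.9, 39.5 and 37.3 CPM at 0 h, 43.2, 45.1 and 40 CPM at 2 h and 45.4, 50.7 and 54.0 CPM at 4 h in LS180. The 4 h and 0 h libraries did not overlap in either line, and the 4 h change was 0.51 in HCT116 (edgeR adjusted p = 0.000249) and 0.40 in LS180 (edgeR adjusted p = 0.00131). RPA2, the middle RPA subunit, had 73.8, 81.1 and 76.9 CPM at 0 h, 88.6, 90.4 and 89.8 CPM at 2 h and 97.6, 108 and 111 CPM at 4 h in HCT116. It had 50.8, 49.7 and 51.4 CPM at 0 h, 57.1, 56.6 and 55.7 CPM at 2 h and 59.0, 72.9 and 72.7 CPM at 4 h in LS180. RPA2 was called higher at 2 h in HCT116 (0.21, edgeR adjusted p = 0.0232) and not in LS180 (0.16, edgeR adjusted p = 0.0805). MCM4 had 312, 362 and 372 CPM at 0 h, 370, 441 and 428 CPM at 2 h and 408, 495 and 516 CPM at 4 h in HCT116. It had 349, 341 and 342 CPM at 0 h, 400, 389 and 401 CPM at 2 h and 428, 456 and 444 CPM at 4 h in LS180. The 2 h libraries of MCM4 overlapped those of 0 h in HCT116, and those of 4 h did not in either line.

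RFC5 had 94.7, 103 and 102 CPM at 0 h, 111, 115 and 114 CPM at 2 h and 120, 134 and 136 CPM at 4 h in HCT116. It had 42.7, 40.4 and 45.3 CPM at 0 h, 49.2, 50 and 46.1 CPM at 2 h and 48.5, 58.3 and 56.7 CPM at 4 h in LS180. TK1 had 188, 194 and 210 CPM at 0 h, 218, 233 and 224 CPM at 2 h and 232, 265 and 258 CPM at 4 h in HCT116. For both RFC5 and TK1 the libraries of 2 h and of 4 h lay above those of 0 h in each line. TK1 had 115, 122 and 112 CPM at 0 h, 131, 131 and 130 CPM at 2 h and 134, 154 and 165 CPM at 4 h in LS180. POLA1 had 61.1, 75.2 and 75.4 CPM at 0 h, 73.4, 84.0 and 86.7 CPM at 2 h and 81.1, 89.3 and 90.9 CPM at 4 h in HCT116, with overlap between 2 h and 0 h. At 2 h in HCT116 RPA3 had 34.1, 31.6 and 34.0 CPM, all above its 0 h libraries. All of these levels are on the TMM scale, and none of the rises was called with ribosomal protein scaling.

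Ratios within a library do not depend on its scaling. Set against the geometric mean of MCM2 to MCM7 in the same library, CDT1 was lower at 4 h than at 0 h by 1.06 log2 units in HCT116 (-2.90 at 4 h, -1.84 at 0 h) and by 1.53 in LS180 (-4.09 at 4 h, -2.56 at 0 h). The differences for GINS3 were -1.17 and -1.25, for MCM10 -0.80 and -1.05, for CDC6 -0.72 and -0.93, for GMNN -0.52 and -0.88, and for SLBP -0.49 and -0.42, with HCT116 first. The 0 h and 4 h libraries did not overlap for any of these 6 genes in either line. The 6 were picked for falling in these same libraries, so this adds no separate support. Among others, ORC1, ORC6, POLA2, PRIM1 and FEN1 were also lower without overlap in both lines, POLA2 by -0.43 in HCT116 and -0.4 in LS180. RPA3 moved the other way, by 0.21 in HCT116, where the libraries overlapped, and by 0.42 in LS180, where they did not. These ratios show unequal change within the list and were not tested.

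At 2 h, fewer genes had moved. In HCT116, 7 genes (17.5%) were called higher, against 13.9% of genes tested, and 4 (10%) lower, against 17.1%. With the replicate number as a block (same-numbered HCT116 libraries deviated together), 17 (42.5%) were called higher, against 18.4% of all genes, and 4 (10%) lower, against 18.8%. In LS180, none was called higher by edgeR, against 13.5%, with 6 at an unadjusted p under 0.05, and 9 (22.5%) were called lower, against 23.9%. DESeq2 called 13 (32.5%) higher, against 28.6% of all genes, and 6 (15%) lower, against 19%. RLE size factors gave 12 (30%) higher, against 28.2%, and 6 (15%) lower, against 19.5%, so the shares of the 40 genes called higher were near those of all genes under both. CDT1, GINS3, MCM10 and CDC6 were lower at 2 h in both lines, with changes of -0.47, -0.41, -0.23 and -0.19 in HCT116 and of -0.69, -0.41, -0.54 and -0.46 in LS180. The CDC6 call in HCT116 was lost in 7 of 15 alternatives, and the MCM10 call there without the 0 h library 2 or the 2 h library 1. ORC6, a small ORC subunit, was lower at 2 h in LS180 (-0.50, SE 0.0731, edgeR adjusted p = 2.09e-05), with 25.9, 23.9 and 23.9 CPM at 2 h, against 36.3, 33.3 and 34.8 CPM at 0 h. Without the HCT116 2 h library 3 no gene was called higher in HCT116, without the HCT116 2 h library 2 there was 1, and without the HCT116 0 h library 1 there were 2. Of all genes, 5.87%, 5.98% and 11.9% were called higher in these fits, against 13.9% with all libraries. Without the LS180 2 h library 2 there were 9 called higher in LS180 (22.5%, against 24.5% of all genes).

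By estimate under TMM, some of these mRNAs changed unequally in the lines, although none of the calls below held in every alternative. In a test of the HCT116 change minus the LS180 change, 9 genes (22.5%) were called higher at 4 h, against 12.3% of the 17256 genes, and 0 lower, against 1.33%, by edgeR, with 0 lower at an unadjusted p under 0.05 and 0 by DESeq2. At 2 h, 3 genes (7.5%) were called higher, against 5.24%, and 0 lower, against 0.394%, again with 0 at an unadjusted p under 0.05 and 0 by DESeq2. A positive value here means a smaller fall, or a larger rise, in HCT116. The largest at 4 h were RFC4 (0.68, SE 0.101, edgeR adjusted p = 0.000106), PRIM1 (0.65, SE 0.0966, edgeR adjusted p = 0.000112) and CDT1 (0.64, SE 0.105, edgeR adjusted p = 0.000283). The others were FEN1 (0.58), GMNN (0.54), ORC6 (0.50), MCM10 (0.44), CDC6 (0.40) and MCM3 (0.29). At 2 h they were ORC6 (0.48), GMNN (0.34) and MCM10 (0.32).

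RFC4, a subunit of the clamp loader, was called in opposite directions. It had 51.6, 59.3 and 58.4 CPM at 4 h, against 46.3, 51.8 and 48.2 CPM at 0 h in HCT116, where the groups overlapped (0.21, edgeR adjusted p = 0.0193, lost in 9 of 15 alternatives). In LS180 it had 39.0, 32.1 and 33.2 CPM at 4 h, against 47.6, 46.5 and 50.8 CPM at 0 h, without overlap (-0.47, edgeR adjusted p = 1.61e-05), a call lost without the LS180 4 h libraries numbered 2 and 3. RFC4 exons overlap those of EIF4A2 on the other strand, so its counts may hold reads of that gene. PRIM1 had 30.8, 33.9 and 36.4 CPM at 4 h, against 28.4, 32.7 and 31.6 CPM at 0 h in HCT116, and 19.5, 16.9 and 18.1 CPM at 4 h, against 25.9, 25.8 and 26.6 CPM at 0 h in LS180. PRIM1 exons overlap NACA and 1 other gene on the same strand and HSD17B6 on the other. FEN1, the flap endonuclease of the lagging strand, had 163, 175 and 182 CPM at 4 h, against 158, 174 and 174 CPM at 0 h in HCT116, and 110, 100 and 100 CPM at 4 h, against 156, 150 and 146 CPM at 0 h in LS180. FEN1 exons overlap FADS2 on the same strand and TMEM258 on the other, and FEN1 has 1 named pseudogene, so its counts may hold reads of these.

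The libraries that stood apart bear on these line differences. Without the LS180 4 h libraries numbered 2 and 3, the calls at 4 h were lost, and the median over all genes was -0.069. That fit assumes that the 1 library left varies like the other groups. It cannot tell a lost difference from lost precision. Without LS180 4 h library 1 there were 6 genes called higher (15%, against 10.9% of all genes) and 3 lower (7.5%, against 14.4%), and the median over all genes was -0.092. Without HCT116 4 h library 2 there were 5 called higher (12.5%, against 5.97% of all genes), and likewise without library 3 (against 6.14%). The median over all genes was then -0.105 and -0.102, and it was -0.101 without HCT116 4 h library 1. Without the 3 HCT116 libraries numbered 1 there were 16 called higher (40%, against 12.4% of all genes). With a replicate block there were 16 at 4 h (40%, against 14.5%) and 5 at 2 h (12.5%, against 6.47%). The sign stayed positive for all 9 genes in all 22 alternatives. With all libraries the estimate was positive for 38 of the 40 genes, while the median of the line difference over all genes was 0.060 and over the 40 genes 0.20. The share of all genes with a positive estimate was not computed. Related lists leaned the same way at 4 h. Of 40 mitotic and G2 genes, 32 were positive and 16 (40%) called higher. Of 48 other replication and S phase genes, 36 were positive and 13 (27.1%) called higher.

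Known signals of mRNA decay were looked up in the 3′ UTRs of the genes (GENCODE release 29, GRCh38). The letters TATTTAT, a core of AU-rich elements, on the transcript strand, were in 5 of the 40 3′ UTRs (12.5%), against 25.6% of 19547 protein-coding genes. They were in 2 of the 6 genes that fell in both lines, CDC6 and MCM10, and in ORC6, POLA2 and CDC45. Under TMM, ORC6 and POLA2 were called lower at 4 h in LS180 and were not called in HCT116. The sites are shown because genes that fell hold them, as does CDC45, which did not. Their part in the changes was not tested. Capitals mark the letters, and of a pair of overlapping matches in POLA2 the first is shown.
CDC6, chr17:40302892-40302916, plus strand: ttgtgaataTATTTATtttcaagtt
MCM10, chr10:13210770-13210794, plus strand: agaataaagTATTTATtaataagaa
MCM10, chr10:13210836-13210860, plus strand: gggtagattTATTTATctcattaac
ORC6, chr16:46698372-46698394, plus strand: aataaatgtTATTTATatatgca
CDC45, chr22:19520499-19520523, plus strand: tgaccttctTATTTATgtaactggc
POLA2, chr11:65297641-65297665, plus strand: attttctttTATTTATttattttgt
CDT1, GINS3, GMNN and SLBP, which fell in both lines, hold none of these letters in the 3′ UTR of the transcript used, and CDC45, which holds them, was called higher at 4 h in both lines under TMM and in neither with ribosomal protein scaling. The median 3′ UTR was 1197.5 bases for the 6 genes and 651 bases for the other 34. Effective length and the 4 h change had Spearman correlations of -0.09 in HCT116 and -0.02 in LS180 over the 40 genes, against -0.20 and -0.24 over all genes.

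Before actinomycin D, 28 of the 40 genes (70%) were called different between the lines, against 76.3% of all genes tested, so a difference as such was no more frequent among them. At 0 h, 19 genes (47.5%) were called higher in HCT116 than in LS180, against 33.7% of the 17256 genes, and 9 (22.5%) lower, against 42.6%. Scaled to ribosomal protein genes, which moved the median of all genes to 0.166 against -0.103 with TMM, 29 (72.5%) were higher and 3 (7.5%) lower, against 42.5% and 31% of all genes. Without a filter on low counts 26 (65%) were higher and 4 (10%) lower, against 24.4% and 22.3% of the 31342 genes then tested. The largest difference was in RFC5, a clamp loader subunit (chr12:118013588-118033130, plus strand of GRCh38), with 94.7, 103 and 102 CPM in HCT116, against 42.7, 40.4 and 45.3 CPM in LS180 (log2 fold change 1.22, SE 0.0695, edgeR adjusted p = 9.35e-12). POLA2, the regulatory subunit of polymerase alpha (chr11:65261762-65305589, plus strand of GRCh38), went the other way, with 17.2, 19.1 and 19.3 CPM in HCT116, against 39.7, 41.5 and 42.0 CPM in LS180 (-1.15, SE 0.0754, edgeR adjusted p = 7.85e-11). These were the 2 genes that differed more than 2-fold. RFC5 exons overlap WSB2 and AC131159.2 on the other strand, and RFC5 has 1 named pseudogene. POLA2 exons overlap AP000944.2 on the same strand, so the counts of both may hold reads of these.

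**Figure D5:**
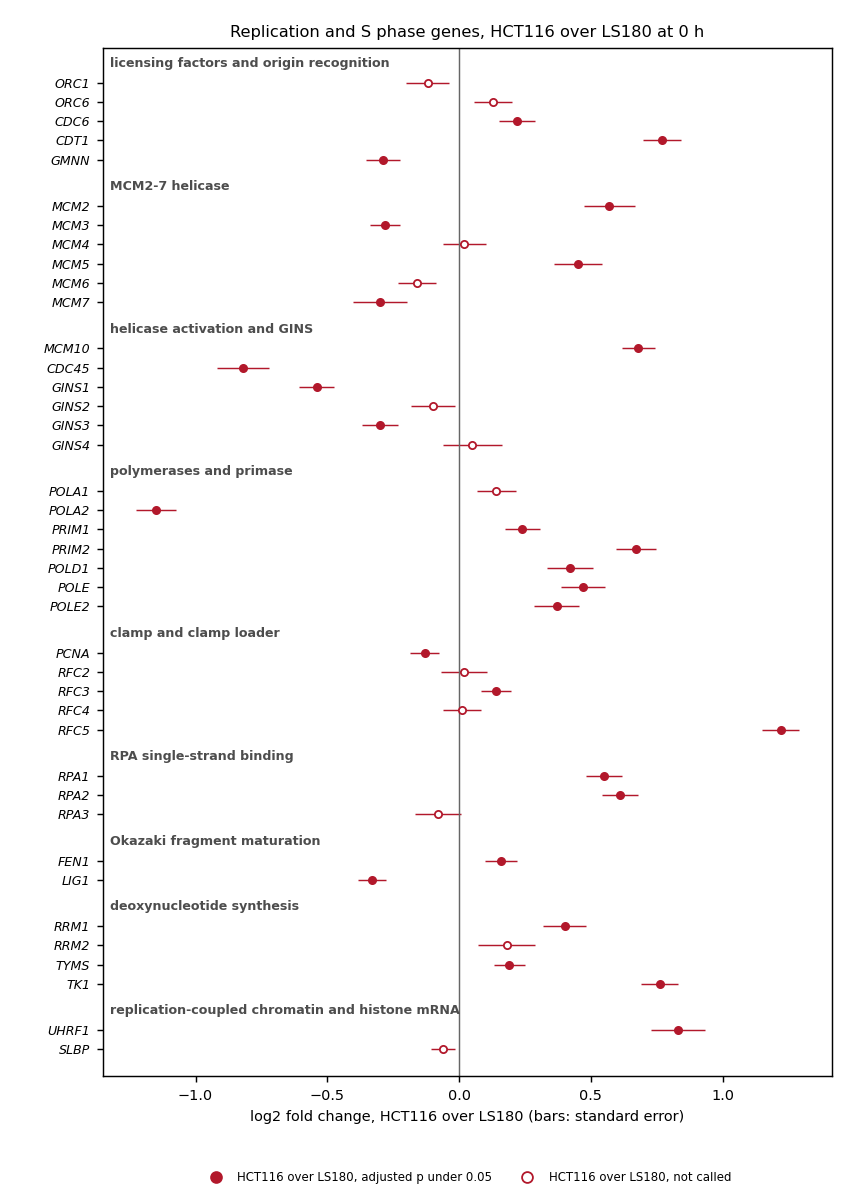
Log2 fold change of level at 0 h of actinomycin D, HCT116 over LS180 (x axis), for each of the 40 genes, grouped by role, with bars for the standard error and filled points for an adjusted p under 0.05. RFC5 lies furthest right at 1.22 and POLA2 furthest left at -1.15, and members of one complex lie on both sides of 0.

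Within complexes the genes differed in sign. In GINS and its partners, MCM10 was higher in HCT116 (100, 114 and 111 CPM against 66.6, 66.6 and 70.3 CPM; 0.68) and CDC45 lower (20.0, 20.8 and 23.7 CPM against 36.9, 39.5 and 37.3 CPM; -0.82, edgeR adjusted p = 3.71e-07), as was GINS1, with 45.5, 43.9 and 41.3 CPM in HCT116, against 61.9, 61.7 and 66.8 CPM in LS180 (-0.54, edgeR adjusted p = 5.89e-07). In the MCM2-7 ring, MCM2 and MCM5 were higher (0.57 and 0.45) and MCM3 and MCM7 lower (-0.28 and -0.30), but MCM3 and MCM7 were called neither with ribosomal protein scaling nor without a filter on low counts. Of the polymerase and primase genes 5 of 7 were higher, PRIM2 among them with 46.2, 53.8 and 52.4 CPM in HCT116, against 32.2, 29.1 and 34.3 CPM in LS180 (0.67, edgeR adjusted p = 2.25e-07). CDT1 had 73.7, 84.8 and 89.7 CPM in HCT116, against 49.2, 49.8 and 46.7 CPM in LS180 (0.77, edgeR adjusted p = 1.82e-08). TK1 had 188, 194 and 210 CPM in HCT116, against 115, 122 and 112 CPM in LS180 (0.76, edgeR adjusted p = 1.02e-08). UHRF1 had 188, 219 and 222 CPM in HCT116, against 122, 120 and 111 CPM in LS180 (0.83, edgeR adjusted p = 6.83e-07). None of these groups overlapped, as in 31 of the 40 genes, and the share of all genes without overlap was not computed. MCM7 had 391, 495 and 517 CPM in HCT116, against 566, 594 and 570 CPM in LS180. LIG1 had 44.9, 46.7 and 50.1 CPM in HCT116, against 59.8, 61.2 and 57.2 CPM in LS180. Neither overlapped. LIG1 and GINS3 were lower (-0.33 and -0.30), and neither was called with ribosomal protein scaling. The calls of 19 of the 28 genes held in all 15 alternatives.

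Other replication and S phase genes, 48 in number, also went in both directions under actinomycin D. At 4 h under TMM, 19 (39.6%) were called higher and 14 (29.2%) lower in HCT116, against 26.2% and 23.7% of all genes. In LS180, 15 (31.2%) were called higher and 20 (41.7%) lower, against 26.6% and 31.1%. CDC25A, the phosphatase that opens S phase, fell by 1.32 in HCT116 and by 2.01 in LS180 on the log2 scale. TICRR, which acts with TOPBP1 in helicase activation, fell by 1.55 in HCT116 and by 2.14 in LS180. ATAD5, which unloads PCNA, fell by 0.95 in HCT116 and by 0.68 in LS180, and DBF4, the activator of the CDC7 kinase, by 0.61 in HCT116 and by 1.28 in LS180. TIMELESS, a fork protection gene, and SAMHD1, a deoxynucleotide hydrolase, were called higher under TMM in both lines (0.49 and 0.36 in HCT116, 0.42 and 0.47 in LS180), and neither was called with ribosomal protein scaling in either line.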

How the data were processed

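RNA-seq tables of 22 libraries in 8 groups were used. The submitters' processing notes name cutadapt, STAR 2.7 and RSEM 1.3.1, with build hg38 in the siRNA experiment and hg19 in the actinomycin D one. Annotation release, filters and strand setting were not given in the sources used here. The authors deposited RSEM expected counts per gene, TPM and effective length, and TPM are per transcript length by the authors' quantification.

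Expected counts were rounded and tested with edgeR 4.0.16 in R 4.3.3 (TMM, filterByExpr, quasi-likelihood F test, two-sided), with Benjamini-Hochberg adjustment over all genes tested and calls at 0.05. In the siRNA experiment 4 libraries and 14073 genes were fitted, and in the actinomycin D experiment 18 libraries and 17256 genes. CPM are TMM-scaled counts. The fits were tested on simulated data. Other settings tried were DESeq2 1.42.0, RLE factors, all genes unfiltered, effective length as an offset, a replicate block and leaving out each library, and for actinomycin D also total library size, ribosomal protein scaling and only the groups compared. Same-numbered libraries of HCT116 deviated together (correlations of 0.64, 0.26 and 0.34 between 2 h and 0 h, and 0.48, 0.21 and 0.23 between 4 h and 0 h). The labels state no pairing, and the HCT116 libraries numbered 1 stood apart, so these correlations cannot settle whether the numbers pair the libraries. The main fits held no block.

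All 40 genes could be named. Values of every library were given for the called genes with the largest changes, up to 6 in each direction, and of other lists up to 4 genes in each direction were named by adjusted p. RPA1, MCM3 and MCM4 with siSTAU1 were given in full beyond this rule, chosen after their values were seen. The members and lists were chosen with earlier results of these data known. Python 3.11.15, pandas 2.3.3, numpy 2.4.6 and matplotlib 3.10.9 were used for the other steps.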

Additional observations from a re-analysis of the deposited data

Results flagged for a closer look

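A test of the difference between the lines' responses to actinomycin D picked out 12 results among the 40 genes, each the log2 change in HCT116 minus that in LS180 under TMM. At 4 h these were MCM10 (0.44), ORC6 (0.50), CDC6 (0.40), MCM3 (0.29), GMNN (0.54), RFC4 (0.68), CDT1 (0.64), FEN1 (0.58) and PRIM1 (0.65). At 2 h they were MCM10 (0.32), ORC6 (0.48) and GMNN (0.34). Of the 9 results at 4 h and the 3 at 2 h, none was called in every alternative. At 4 h the calls of CDT1, GMNN, RFC4, FEN1 and PRIM1 were lost in 1 alternative of 22, the one without the LS180 4 h libraries numbered 2 and 3.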

How the results depend on the processing

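Depth was not varied, and counting error limits the genes with few counts. With ribosomal protein scaling, members called higher and lower numbered 0 and 13 at 4 h and 0 and 5 at 2 h in HCT116, 0 and 34 at 4 h and 0 and 15 at 2 h in LS180, and 29 and 3 for HCT116 against LS180 at 0 h. The line difference at 2 h then had 0 higher, against 2.01% of all genes. At 2 h, 23.1% of all genes in HCT116 and 32.7% in LS180 were then called lower. Log2 fold changes that changed sign with it were, at 4 h in HCT116, ORC6 -0.28, MCM3 -0.12, MCM5 -0.11, MCM6 -0.19, MCM7 -0.055, GINS1 -0.15, GINS2 -0.19, GINS4 -0.061, POLA1 -0.099, PRIM2 -0.096, POLD1 -0.09, POLE2 -0.29, PCNA -0.23, RFC2 -0.076, RFC3 -0.25, RFC4 -0.19, RFC5 -0.014, RPA1 -0.12, FEN1 -0.36, LIG1 -0.034, RRM1 -0.098 and TK1 -0.053, at 4 h in LS180, MCM2 -0.52, MCM4 -0.19, MCM5 -0.51, MCM6 -0.42, MCM7 -0.47, CDC45 -0.16, GINS2 -0.37, GINS4 -0.22, POLA1 -0.31, PRIM2 -0.51, PCNA -0.49, RFC2 -0.33, RFC5 -0.21, RPA1 -0.29, RPA2 -0.13, RPA3 -0.03, LIG1 -0.39, RRM1 -0.27, RRM2 -0.44, TYMS -0.13 and TK1 -0.18, at 2 h in HCT116, POLA1 -0.023, RFC5 -0.043, RPA2 -0.016, TYMS -0.043 and TK1 -0.042, at 2 h in LS180, PCNA -0.20, and for HCT116 against LS180, PCNA 0.14, RPA3 0.18 and SLBP 0.21. With total library size, members higher numbered 1 (2.5%) at 2 h and 11 (27.5%) at 4 h in HCT116, against 3.97% and 13.2% of all genes. At 4 h in LS180 they numbered 4 (10%), with 20 (50%) lower, against 11% and 37.4%. The line difference at 2 h had 1 (2.5%) higher, against 2.52%. The LS180 4 h values of PCNA -0.14 and LIG1 -0.041 changed sign.

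Members higher at 2 h in LS180 numbered 12 with RLE, 13 with DESeq2, 14 without a filter and 9 in a fit of only the groups compared, against 28.2%, 28.6%, 15.7% and 25.1% of all genes. Leaving out 1 library they numbered 0 to 9, against 8.41% to 24.5%. At 2 h in HCT116 they numbered 3 with an effective length offset, 3 unfiltered and 4 with only the groups compared, against 10.7%, 4.67% and 10.9% of all genes. Leaving out 1 library they numbered 0 to 8 (2 to 4 lower), against 5.87% to 11.9% (14.7% to 15.3% lower). At 4 h in HCT116 they numbered 15 with only the groups compared, against 22.8% of all genes, and 11 to 28 leaving out 1 library, against 19.3% to 25.6%. Without a filter, 4 genes were lower in HCT116 than in LS180 and PCNA stood at 0.031. The line difference at 2 h had 1 gene higher with DESeq2, 1 with an effective length offset, 0 with RLE and 0 unfiltered, against 4.02%, 3.4%, 3.34% and 1.97% of all genes. It had 0 to 4 leaving out 1 library, against 2.06% to 5.32%. At 4 h it had 5 to 11 higher and 0 to 3 lower leaving out 1 library, against 5.97% to 12% and 0.774% to 14.4% of all genes. In alternatives added after the data had been seen it had 16 without the 3 HCT116 libraries numbered 1, against 12.4% of all genes. Its calls were lost without the LS180 4 h libraries numbered 2 and 3, a fit that left 1 library in that group. Leaving out 1 library, GINS1 at 4 h in LS180 ranged over -0.057 to 0.19 and the RPA2 line difference at 4 h over -0.24 to 0.095. With siSTAU1, leaving out 1 library gave 5 to 11 higher and 9 to 15 lower, against 13.5% to 21.3% and 14.5% to 22.6% of all genes. The cause of these shifts was not tested.

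With a replicate block, 17 members were higher at 2 h in HCT116 and 27 higher and 7 lower at 4 h, against 18.4%, 29.1% and 25% of all genes. Same-numbered libraries deviated together there, but the labels state no pairing. The line differences hold these HCT116 libraries and LS180 libraries that share only a number, and the block gave 5 higher at 2 h and 16 at 4 h. In the other comparisons samples share only a number: the block gave 12 higher and 15 lower with siSTAU1, against 25.3% and 24.9% of all genes. It gave 7 higher at 2 h in LS180, against 17.6%.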

Other observations

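Genes of the E2F and RB pathway, which act upstream of many replication genes, moved in both directions under actinomycin D. Of 28 rows for the 27 listed genes, 12 (42.9%) were called lower at 4 h in HCT116 under TMM, against 23.7% of all genes, and 7 (25%) higher, against 26.2%. In LS180, 16 (57.1%) were called lower, against 31.1%, and 7 (25%) higher, against 26.6%. CDKN1B, a cyclin-dependent kinase inhibitor, had a log2 fold change of -2.57 in HCT116 and -3.47 in LS180, E2F3 of -1.72 and -2.39, E2F8 of -2.36 and -2.75, and E2F2 of -2.82 and -2.96, with HCT116 first. TFDP1, the partner of E2F proteins, and RB1 were called higher in both lines under TMM (0.41 and 0.34 in HCT116, 0.40 and 0.39 in LS180), and neither was called with ribosomal protein scaling. With siSTAU1, 12 of the 27 genes (44.4%) were called higher, against 23.0% of all genes, and 6 (22.2%) lower, against 23.0%. E2F1 (0.38) and CDKN1B (0.44) were among those higher and E2F2 (-0.30) and E2F8 (-0.26) among those lower.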
